A study of Arabidopsis thaliana with 9 samples.

Results

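ARR15 (AT1G74890) and ARR16 (AT2G40670, listed as RR16 in the gene tables) are type-A response regulators of Arabidopsis thaliana. They were taken by gene symbol, and each was read by 1 probe set assigned to that gene alone: 262212_at for ARR15 and 266078_at for ARR16. These are 2 of the 13356 genes that 13513 single-gene probe sets of the Affymetrix ATH1 array name, among 22746 probe sets in all. Line 348 and line 409 are labelled T-DNA knock-out mutants, with no disrupted gene named, and C2S1 is the control, which its titles call WT while a second label gives it a knock out mutation too. Total RNA came from whole plants at growth stage 1.04, 17 days old, from plates kept at 21 C under a 16 h day, and each line was hybridised on 3 arrays. The sources used here do not say whether a line goes back to 1 insertion event or whether its 3 samples were separate plantings. The p-values below therefore cover the spread from sample to sample, which may be no more than technical.

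Cytokinin is sensed by membrane histidine kinases, which pass a phosphate through histidine phosphotransfer proteins to response regulators in the nucleus. Type-B regulators bind DNA and switch on cytokinin-responsive genes, type-A regulators among them. Type-A proteins consist mainly of a receiver domain, lack the DNA-binding domain of the type-B proteins and dampen cytokinin signalling. Because type-B regulators switch on the type-A genes, type-A transcript levels are widely used as a readout of the pathway. In roots, reporter studies placed ARR15 in the vascular cylinder and ARR16 in the pericycle, and the ARR15 protein in the nucleus and ARR16 in the cytoplasm. ARR15 is also raised by cold.

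Neither gene passed the test in either mutant line, its arrays overlapped with those of C2S1 in both, and its signals were dim and variable. ARR15 averaged 31.0 ± 9.03 signal units in line 348 and 29.5 ± 4.59 in line 409, against 23.6 ± 7.65 in C2S1 (SD, n = 3 arrays each). ARR16 averaged 30.3 ± 10.5 in line 348 and 30.3 ± 11.7 in line 409, against 30.5 ± 7.10 in C2S1 (SD, n = 3 arrays each). A signal here is the authors' MAS5 value, an intensity on a linear scale that had been scaled to a 2% trimmed mean of 100 on every array. Whole-plant RNA mixes all cell types, so fewer cells with the transcript and less transcript per cell cannot be told apart.

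The plants carried shoot and root transcripts as labelled. RCA, Rubisco activase of leaf chloroplasts, lay between 5061 and 6350 signal units on the 9 arrays, and PYK10, a beta-glucosidase abundant in roots, between 2340 and 3641. By probe sets assigned to 1 gene, 4 of the 11 shoot markers listed and 1 of the 8 root markers were read. Of the 7 floral and 7 seed markers 0 were read in this way, so these 2 kinds were not analysed here. The mean correlation of an array with the others of its line was 0.968 to 0.982 over the 14199 probe sets tested. C2S1 replicate 1, which mattered most for ARR15, had 0.980. The lowest values were those of line 409 replicates 1 and 3, at 0.9683 and 0.9675. These arrays gave the lowest and the highest ARR16 signal of line 409.

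ARR15 gave 40.5, 30.1 and 22.5 signal units on the 3 arrays of line 348. On those of line 409 it gave 34.8, 26.4 and 27.3. On the C2S1 arrays it gave 15.1, 26.0 and 29.8. Line 348 replicate 1 was the highest of the 9 arrays and C2S1 replicate 1 the lowest, and the values of each mutant line overlapped with those of C2S1. All 3 arrays of line 409 and 2 of 3 of line 348 lay above the C2S1 mean. Ordered by mean, line 348 stood first, line 409 next and C2S1 last, with line 348 and line 409 apart by less than the SD of either, and line 409 and C2S1 by less than the C2S1 SD.

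ARR16 gave 39.7, 32.1 and 19.0 signal units on the arrays of line 348. On those of line 409 it gave 19.8, 28.3 and 42.9. On the C2S1 arrays it gave 26.7, 26.2 and 38.7. The lowest value of all 9 arrays was on line 348 replicate 3 and the highest on line 409 replicate 3, and the ranges of both mutant lines reached beyond the C2S1 range on either side. The highest array of a line was 2.17 times the lowest in line 409, 2.09 times in line 348 and 1.48 times in C2S1. The 3 line means differed by less than the SD of any line.

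**Figure D1:**
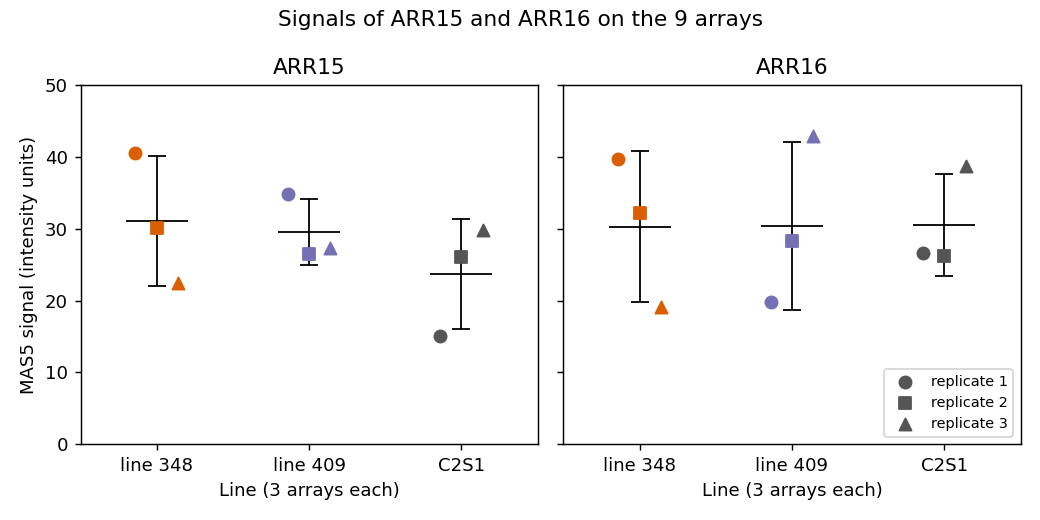
MAS5 signal of ARR15 and ARR16 (vertical axes, intensity units) on each array of line 348, line 409 and C2S1; symbols mark the replicate and black bars the mean ± SD of 3 arrays. The ARR15 value of 15.1 on C2S1 replicate 1 is the lowest point, and the ARR16 values span 19.0 to 42.9 with near-equal line means.

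Line 348 was compared with C2S1 to ask which transcripts differ in this mutant. On the scale of log2(signal + 4.95), which understates changes of dim genes, ARR15 had a log2 change of 0.34 with SE 0.254, a 1.27-fold difference. The 95% confidence interval ran from 0.870-fold to 1.84-fold, and the limma adjusted p over all 14199 probe sets was 0.913. ARR16 had a log2 change of -0.04 with SE 0.278, an interval from 0.646-fold to 1.47-fold and limma adjusted p = 0.993. The exact two-sided permutation p was 0.4 for ARR15 and 1 for ARR16, where 3 against 3 arrays cannot go below 0.1. Limma called 0 of the 2 genes at an adjusted p under 0.05, 0 had an unadjusted p under 0.05 and 0 had arrays that did not overlap with those of C2S1. Over all probe sets tested these shares were 0.0211%, 5.64% and 13.2%.

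Line 409 was compared with C2S1 for the same reason. ARR15 had a log2 change of 0.30 with SE 0.254, a 1.23-fold difference with a 95% confidence interval from 0.846-fold to 1.79-fold and limma adjusted p = 0.664. ARR16 had a log2 change of -0.04 with SE 0.278, an interval from 0.644-fold to 1.47-fold and limma adjusted p = 0.971. The exact two-sided permutation p was again 0.4 for ARR15 and 1 for ARR16. By limma 0 of the 2 genes were called, 0 had an unadjusted p under 0.05 and 0 were without overlap, against 0.0423%, 12.2% and 17.7% of all probe sets tested. This comparison shares its 3 C2S1 arrays with the one of line 348, so the like ARR15 values of both lines are not 2 independent readings.

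The value of ARR15 hung on C2S1 replicate 1. Without that array the log2 change was 0.10 in line 348 and 0.06 in line 409. Without line 348 replicate 1, the brightest array for ARR15, the change of line 348 was 0.16. Without C2S1 replicate 3 it was 0.50 in line 348 and 0.46 in line 409, and without line 348 replicate 3 it was 0.52 in line 348. Without line 409 replicate 1 it was 0.19 in line 409. For ARR16 the sign itself depended on single arrays. Without C2S1 replicate 3 its log2 change was 0.12 in both lines, without line 348 replicate 3 it was 0.22 in line 348, and without line 409 replicate 1 it was 0.19 in line 409, while without line 409 replicate 3 it was -0.29 in line 409. The 95% confidence interval of every one of these changes held 0.

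**Figure D2:**
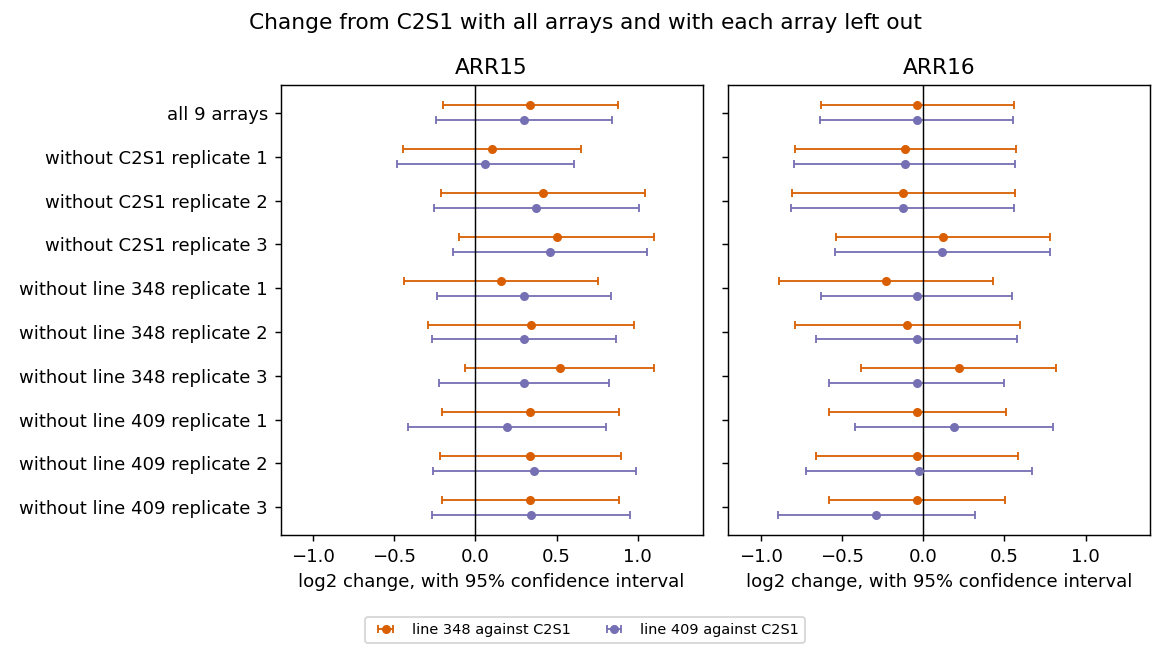
Log2 change of ARR15 and ARR16 from C2S1 (horizontal axes) with 95% confidence intervals, for line 348 and line 409, from the limma fit of all 9 arrays (top row) and with each array left out in turn. All intervals cross 0, and ARR15 lies nearest to 0, at 0.10 and 0.06, without C2S1 replicate 1.

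Lines 409 and 348 were then set against each other. ARR15 had a log2 change of -0.04 with SE 0.254 and ARR16 a log2 change of -0.0045 with SE 0.278, line 409 over line 348. The 95% confidence intervals of the log2 changes ran from -0.58 to 0.50 for ARR15 and from -0.60 to 0.59 for ARR16, with limma adjusted p = 0.981 and 0.997. The exact permutation p was 0.9 and 1. All 6 exact permutation p-values of the 2 genes in the 3 comparisons were 1 after Benjamini-Hochberg adjustment. Of the 2 genes 0 were called by limma, 0 had an unadjusted p under 0.05 and 0 were without overlap, against 0.0141%, 7.48% and 11.1% of all probe sets tested.

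Both probe sets lay just below the middle of the signals on an array and among the dimmer of those tested. On single arrays ARR15 stood at percentile 35.5 to 51.0 of all signals and ARR16 at percentile 38.9 to 51.3. ARR15 was above the median signal on 1 of 9 arrays and ARR16 on 3. They were above the 40th percentile, the filter for testing, on 8 and 7 arrays, where at least 3 were required.

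The spread between arrays of the same line was larger for both genes than for most probe sets of like signal. The residual SD within lines was 0.338 log2 units for ARR15 and 0.415 for ARR16, against a median of 0.194 over all probe sets tested. When the tested probe sets were divided by mean log2 signal into 10 bins, both genes fell into the second dimmest, where the median was 0.258 over 1420 probe sets. A smaller SD than that of ARR15 was found for 78.5% of that bin, and than that of ARR16 for 91.6%. At their SE, a call beside the 3 probe sets called in line 348 would have needed a 3.04-fold change of ARR15 and a 3.39-fold change of ARR16. In line 409 it would have needed 2.88-fold and 3.19-fold. These folds are of signal + 4.95, so the folds of the signal itself would be larger.

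**Figure D3:**
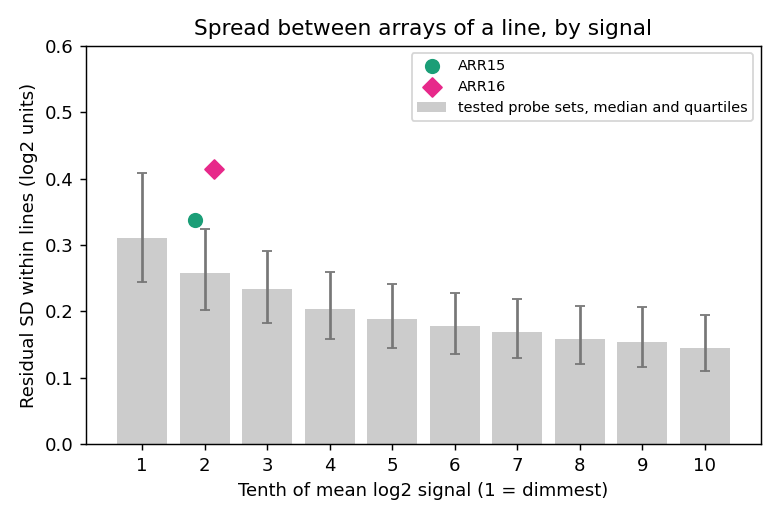
Residual SD within lines (vertical axis, log2 units) in 10 bins of mean log2 signal (horizontal axis, 1 the dimmest); bars are the median of the tested probe sets, with their quartiles as error bars. ARR15 at 0.338 and ARR16 at 0.415 stand above the median of their bin, 0.258.

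The relation of the 2 genes across arrays was examined next, since type-A regulators share their activators. Over the 9 arrays, the log2 signals of ARR15 and ARR16 had Pearson r = 0.32 and Spearman rho = 0.45, with exact permutation p = 0.413 and 0.230. For the deviations from the mean of each line, r was 0.40 and rho 0.37, with permutation p = 0.286 and 0.336. The deviations were shuffled freely across lines although the line means had been taken out, so these 2 p-values are approximate. All 4 values had p = 0.413 after Benjamini-Hochberg adjustment over these permutation tests. Without C2S1 replicate 1 and line 348 replicate 1, the 2 arrays farthest from the ARR15 median, r was 0.12 over the arrays and 0.24 for the deviations.

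Array by array, the 2 genes kept the same order within line 348, where replicate 1 was the highest and replicate 3 the lowest for both. In line 409 replicate 1 was the highest for ARR15 and the lowest for ARR16. In C2S1 replicate 3 was the highest for both, while replicate 1 was the lowest for ARR15 only. Leaving out line 409 replicate 1 moved r to 0.60, with exact permutation p = 0.110, and leaving out line 348 replicate 1 moved it to 0.13, with exact permutation p = 0.775.

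**Figure D4:**
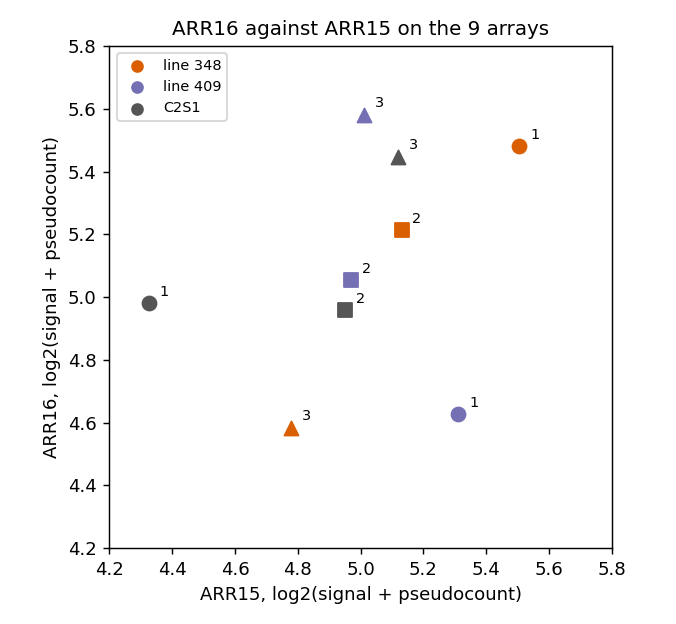
Log2(signal + pseudocount) of ARR16 (vertical axis) against ARR15 (horizontal axis), 1 point per array, coloured by line and numbered by replicate. Line 348 runs from low to high in both genes, while line 409 replicate 1 is high for ARR15 and low for ARR16, and r over the 9 points is 0.32.

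Whether the 2 genes changed by different amounts was tested on the log2 difference between them on each array. The ARR15 change minus the ARR16 change was 0.38 for line 348 against C2S1, 0.34 for line 409 against C2S1 and -0.04 for line 409 against line 348, where the pooled SD of the difference between arrays was 0.418. The exact permutation p was 0.2, 0.5 and 0.9, and 0.6, 0.75 and 0.9 after adjustment over the 3 comparisons.

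The dimmest signals of an array were compared with both genes because the ARR16 extremes fell on arrays at the ends of that measure. This match was seen first, so the ARR16 p-values of the comparison describe it and cannot test it. The 20th percentile of the signal was 6.26 on line 409 replicate 3, the highest of the 9 arrays, and 4.43 on line 348 replicate 3, the lowest. ARR16 had its own highest and lowest signals on these same arrays, in the same order. Over the 9 arrays ARR16 had r = 0.58 and rho = 0.62 with the log2 of that percentile, with exact permutation p = 0.0994 and 0.0857, and 0.199 for each after adjustment over the 4 values of both genes. Without those 2 arrays r was 0.068. The match had been seen on these same arrays, so a lower value without them does not test the relation. ARR15 had r = 0.37 and rho = 0.43, with exact permutation p = 0.321 and 0.250, and r = 0.51 without the same 2 arrays. The part of this measure in the values of the 2 genes was not tested.

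Of 81 genes in the lists of the cytokinin pathway, 8 were read by a probe set that the table assigns to 1 gene, and 4 of these passed the filter on dim signal. They were ARR15 and ARR16, the only 2 of the 10 listed type-A regulators read here, and the glucosyltransferases UGT76C1 and UGT76C2, which inactivate cytokinin by attaching glucose to its ring. Receptors, phosphotransfer proteins, synthesis genes and cytokinin response factors had 0 members read in this sense and were not analysed here. The probe annotation used names no gene for 8730 probe sets. A gene not read here may therefore still have a probe set on the array. Limma called 0 of the 4 genes in any of the 3 comparisons, and 0 had an unadjusted p under 0.05, against the shares of all probe sets given above for ARR15 and ARR16. The median log2 change of the 4 was -0.11 in line 348 and -0.10 in line 409. Over all probe sets tested it was -0.01 in each line. The change was above 0 for 1 of the 4 in both lines. Of all probe sets tested, 48.0% were above 0 in line 348 and 47.8% in line 409.

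UGT76C1 averaged 61.3 ± 14.5 signal units in line 348 and 67.9 ± 9.99 in line 409, against 75.7 ± 7.14 in C2S1 (SD, n = 3 arrays each). Its log2 changes were -0.31 and -0.15 with SE 0.174. UGT76C2 averaged 96.4 ± 12.0 in line 348 and 86.9 ± 20.6 in line 409, against 111 ± 17.7 in C2S1 (SD, n = 3 arrays each). Its log2 changes were -0.18 and -0.35 with SE 0.177, and the smallest limma adjusted p of either gene was 0.885 in line 348 and 0.460 in line 409. Both genes overlapped between every 2 lines, as ARR15 and ARR16 did.

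The other 4 cytokinin genes read were too dim to test. The type-B regulators ARR18 and ARR19 lay at 0.598 to 4.48 and 0.871 to 6.05 signal units over the 9 arrays. The type-C regulator ARR22 averaged 2.03 ± 2.09 in line 348 and 1.42 ± 1.12 in line 409, against 0.314 ± 0.073 in C2S1 (SD, n = 3 arrays each). UGT73C1, a glucosyltransferase that can act on the side chain of zeatin, lay at 0.416 to 9.51. The 20th percentile of an array was 4.43 to 6.26, so most of these signals stood among the dimmest on the array.

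Of 5 genes listed as linked to the control of ARR15 or ARR16, 2 were read and 1 was tested, and of 8 cold-induced genes 3 were read and 1 was tested. Neither of the 2 tested genes was called, where 0.0211% of all probe sets were called in line 348 and 0.0423% in line 409. SPCH is the transcription factor that starts the stomatal lineage and is known to bind DNA at the ARR16 gene. It averaged 43.2 ± 8.43 signal units in line 348 and 33.4 ± 2.16 in line 409, against 43.2 ± 12.3 in C2S1 (SD, n = 3 arrays each). Its log2 changes were 0.02 and -0.30 with SE 0.207, and limma adjusted p = 0.994 and 0.587. CLV3, the gene of a signalling peptide of shoot stem cells, was at 0.564 to 3.41 signal units and was not tested. The cold-induced dehydrin gene COR47 had log2 changes of -0.04 in line 348 and 0.09 in line 409 with SE 0.123, while COR15A and COR15B, at 9.52 to 24.4 and 7.07 to 20.8 signal units, did not pass the filter.

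**Figure D5:**
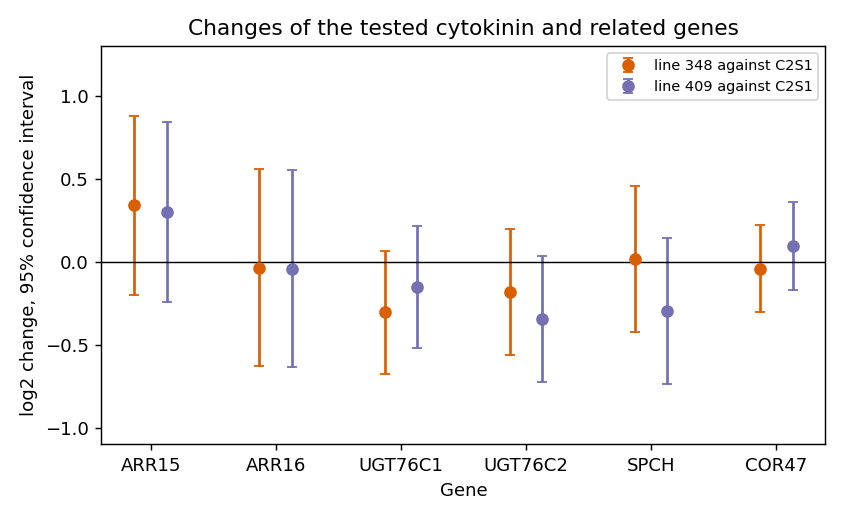
Log2 change from C2S1 (vertical axis) with 95% confidence intervals for line 348 and line 409, for the 4 tested cytokinin genes and for SPCH and COR47, genes linked to ARR16 and to cold. All intervals cross 0, and those of ARR15 and ARR16 are the widest of the 6 genes.

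Among the tested probe sets with 1 named gene, those most like ARR15 over the 9 arrays were ALDH10A9, an aldehyde dehydrogenase, with Pearson r = 0.94, AT1G52360 with r = 0.90 and AT3G15430 with r = 0.89. Those most like ARR16 were AT4G01040 with r = 0.97, AT4G35380 with r = 0.97 and AT3G06410 with r = 0.95. Over all 14198 other probe sets tested, with or without a named gene, 5 had r over 0.9 with ARR15 and 18 with ARR16. Values under -0.9 were found for 3 with ARR15 and 13 with ARR16. The genes named were picked as the highest of many values over 9 arrays, and whether they exceed chance was not tested. The value of r between ARR15 and ARR16 was higher than that of 81.4% of probe sets with ARR15 and of 74.7% with ARR16.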

How the data were processed

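The deposited values are MAS5 signals made in GCOS, per the submitters' processing notes, and are intensity values on a linear scale for 22810 probe sets on 9 arrays. No software version is named in the sources used. The authors' scaling was kept. The 64 control probe sets were dropped. Genes were named through the platform's probe annotation and RefSeq, which left 8730 probe sets unnamed and 503 with several genes. Signals were tested as log2(signal + 4.95), where 4.95 is the array-wise 20th percentile, taken at its median, if above the 40th percentile of the array on at least 3 arrays. This kept 14199 probe sets.

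Changes were fitted with limma 3.58.1 in R 4.3.3, as 1 model over 9 arrays (empirical Bayes, variance trend on intensity), and p-values were adjusted by Benjamini-Hochberg over all probe sets tested. Single values and correlations had exact permutation tests in Python 3.11.15, which are approximate for the deviations from line means. The code was tested on simulated data. Replicate numbers follow sample order, since the titles of line 348 number its arrays 1, 1 and 3. No batch is given in the labels, and precision is limited by having 9 arrays.

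The 2 genes and the lists were chosen with earlier results of these data known. The naming rule took both genes, every type-A regulator read, up to 3 genes of highest mean signal per cytokinin list and the 3 single-gene probe sets most correlated with each member. Related genes, neighbours and markers were named outside it, and the comparison with the 20th percentile was added after the values were seen. No sequences were used here.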

Additional observations from a re-analysis of the deposited data

How the results depend on the processing

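Refits under other settings gave 110 values, 1 for each gene, comparison and setting. None of them gave a call, and the smallest limma adjusted p was 0.525. The 110 values are not independent, since leaving out an array outside a comparison keeps its log2 change as it was. Outside the fits that leave out an array, the ARR15 log2 change lay between 0.22 and 0.41 in line 348 and between 0.19 and 0.37 in line 409, the ends coming from the larger pseudocount and from none. With array weights ARR16 turned to 0.064 in line 348 and to 0.011 in line 409. With 1 array left out, ARR15 ranged from 0.10 to 0.52 in line 348, from 0.06 to 0.46 in line 409 and from -0.22 to 0.14 between the lines, and ARR16 from -0.23 to 0.22, from -0.29 to 0.19 and from -0.26 to 0.23. The ARR15 minus ARR16 change ranged from 0.21 to 0.54, from 0.0032 to 0.63 and from -0.37 to 0.25, and r between the genes from 0.13 to 0.60. The members did not pass a filter at the 60th percentile. In line 348 limma called 3 probe sets, but 10 with array weights, 6 with only the 6 arrays compared, 1 without the intensity trend and 0 among single-gene probe sets, where 401 passed 0.05 before adjustment. In line 409 it called 6, but 40 with array weights. Between the lines it called 2, but 1 without the filter, 1 among those with 1 gene and 1 without the trend. With 1 array left out these counts ranged from 1 to 24, 1 to 60 and 1 to 6, with 24 and 60 without C2S1 replicate 3. Cytokinin genes called stayed at 0 in every fit. Same-numbered arrays of line 409 and C2S1 had correlated deviations of 0.192, -0.037 and 0.103, and differently numbered ones lay between -0.177 and 0.087. These values do not settle whether the numbers mark pairs, and the main fit did not take them as pairs. With the replicate block ARR15 had 0.30 and ARR16 -0.04 in line 409. It called 37 probe sets, against 8 in the same 6 arrays without the block. The causes of these differences were not tested.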

Other observations

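The nearest protein-coding neighbours of both genes in the RefSeq table, 2 on each side, were also looked at, and 5 of the 8 were read by a single-gene probe set. AT1G74910, 2 genes from ARR15, averaged 379 signal units in line 348 and 372 in line 409, against 316 in C2S1, with log2 changes of 0.26 and 0.22, SE 0.141 and limma adjusted p = 0.884 and 0.564. OTP43, next to ARR15, was too dim to test, at means of 12.5, 16.5 and 17.2 signal units in line 348, line 409 and C2S1. Beside ARR16, AT2G40650 had log2 changes of -0.20 in line 348 and -0.30 in line 409 with SE 0.124 and limma adjusted p = 0.885 and 0.344. The value in line 409 had an unadjusted limma p of 0.0273, where 12.2% of all probe sets had one under 0.05. In line 348 and line 409, AT2G40660 had log2 changes of 0.05 and -0.07 with SE 0.113, and AT2G40700 of -0.0045 and -0.12 with SE 0.167. None of these 4 tested neighbours was called by limma at an adjusted p under 0.05 in any of the 3 comparisons.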
